A study of Drosophila melanogaster with 3 samples.

Results

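Muscle contracts through the sarcomere, in which thick filaments of myosin slide along thin filaments of actin that are anchored at Z discs. Calcium released from the sarcoplasmic reticulum binds troponin C on the thin filament and lets myosin bind actin. The fly head holds the muscles of the proboscis, pharynx and antennae, so sarcomere transcripts are part of any whole-head RNA sample. The genes described here are 35 named components of this machinery, taken by symbol from the platform's probe-to-gene table. Of these, 29 had a probe set with a single gene name, out of 11982 such genes on the array, and 24 lay in the brighter 50% of those genes (mean signal above 254) and were compared. Mhc, Act57B, wupA, Tm1, TpnC47D and TpnC25D, which encode muscle myosin heavy chain, an actin, troponin I, a tropomyosin and 2 troponin C isoforms, were not analysed here.

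RNA came from whole heads of adult Drosophila melanogaster, 4 to 6 days old, on 1 array per genotype. The control was p247-Gal4,tub-gal80[ts]/+, which carries the Gal4 driver and the temperature-sensitive repressor Gal80 but no UAS transgene. PKA-DN flies had the same driver and repressor plus UAS-PKA-DN, a dominant-negative protein kinase A (PKA). PKA-CA flies had them plus UAS-PKA-CA, which is constitutively active. All groups were reared at 18 °C and spent 12 to 16 h at 32 °C from 3 days of age, so the warm shift was shared by the control. The driver is described in the design text as specific for the mushroom bodies, the brain's centres for olfactory memory. It was built with regulatory DNA of Mef2, a transcription factor gene that also acts in muscle, and Mef2 was not analysed here. The same text pairs raised activity with PKA-DN and lowered activity with PKA-CA, the reverse of what the transgene names say, and groups are therefore called by their transgene only. The study asked which genes respond to high or low PKA activity, and head muscle is not named as a target tissue.

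Each array held 18952 probe sets with a common trimmed mean of 500 signal units. The highest control probe set, used as the background limit, lay between 70.9 and 77.8 on the 3 arrays. The 3'/5' signal ratio, which rises with RNA degradation, was 1.70 in the control, 2.05 in PKA-DN and 2.0 in PKA-CA for GAPDH, thus lowest in the control as most muscle signals were. It was 1.79, 2.29 and 1.70 for actin and 2.51, 2.33 and 3.01 for eIF-4a. The part of RNA quality in the muscle gene ratios was not tested. The labelled tissue was checked on photoreceptor genes: all 7 with a single-name probe set were above background on every array, with a summed signal of 90843 in the control, 86487 in PKA-DN and 81929 in PKA-CA. With 1 array per genotype, every difference below is between arrays and has no replicate error. In RNA from a whole head, fewer muscle cells and less of a transcript per muscle cell cannot be told apart.

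Most muscle genes gave higher signals on both PKA arrays than on the control array. In PKA-DN heads 18 of the 24 compared members were above the control, against 48.3% of all 5991 genes compared, and the members' median log2 ratio was 0.19 where that of all genes was -0.01. In PKA-CA heads 21 of 24 were above the control, against 49.5% of all genes, with a median of 0.37 where all genes had -0.003. Both sets of ratios share the control array. The members were chosen with earlier results of these data known, so the counts beside all genes are a description and not a test. Between the PKA arrays, without the control, 20 of 24 members were higher in PKA-CA, against 50.2% of all genes, with a median of 0.16 beside 0.001 for all genes.

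Most members stayed within 1.5-fold in each comparison. At 1.5-fold or more, 3 of the 24 members were higher in PKA-DN than in the control (1.49% of all genes) and 1 was lower (1.44%). On the PKA-CA array 4 of 24 were higher by that margin (1.72% of all genes) and none was lower (1.89%). Between the PKA arrays 2 of 24 were higher in PKA-CA (2.22%) and none was lower (2.0%). The middle 95% of all genes lay between -0.49 and 0.45 for PKA-DN over control and between -0.54 and 0.50 for PKA-CA over control. On the PKA-DN array 3 of 24 members lay above that range and 1 below it, and on the PKA-CA array 7 lay above and 0 below.

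**Figure D1:**
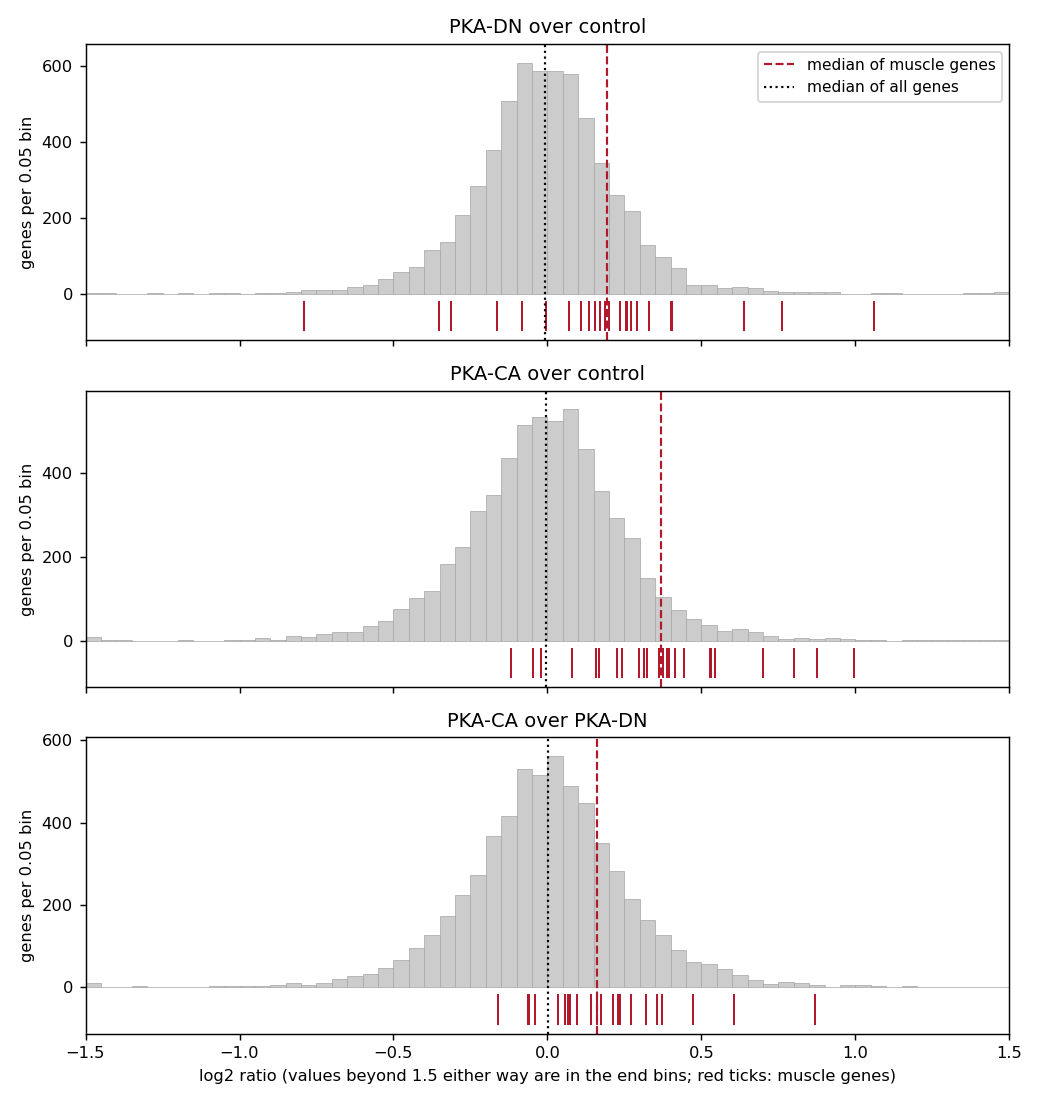
Distribution of log2 ratios over 5991 genes (grey bars, genes per bin) for the 3 comparisons, with each of the 24 muscle genes as a red tick below the axis. The dashed red line is the muscle gene median (0.19, 0.37 and 0.16 from top to bottom) and the dotted black line that of all genes; most red ticks sit to the right of the centre in each panel.

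Thick filament genes were compared first. All 7 compared members were above the control in PKA-CA and 6 of 7 in PKA-DN, with medians of 0.31 and 0.26. For this and the later subgroups, the shares of all genes above the control were 49.5% in PKA-CA and 48.3% in PKA-DN. Paramyosin (Prm), the rod protein that forms the core of invertebrate thick filaments, had a signal of 1469 in the control, 2286 in PKA-DN and 2557 in PKA-CA. Both PKA arrays were thus well above the control, by 1.56-fold and 1.74-fold (log2 ratios 0.64 and 0.80), which placed Prm at rank 70 and rank 34 from the top of 5991 genes. A second Prm probe set gave 891, 1320 and 1364 in the same order, with log2 ratios of 0.57 and 0.61.

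The myosin light chains sit on the neck of the myosin head. The essential light chain gene Mlc1 had 2401 in the control, 2866 in PKA-DN and 3005 in PKA-CA, with log2 ratios over control of 0.26 and 0.32. The regulatory light chain gene Mlc2 had 1915, 2530 and 2462, with ratios of 0.40 and 0.36. For both genes the control was the lowest array and the PKA arrays lay close together, with PKA-CA over PKA-DN at 0.07 for Mlc1 and -0.04 for Mlc2. Myofilin (Mf), a thick filament protein of insect muscle, had the highest value in PKA-DN, at 8612 against 6507 in the control and 7699 in PKA-CA, with ratios of 0.40 and 0.24. The other Mf probe set gave 0.30 and 0.26.

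The remaining thick filament genes encode large proteins. Projectin (bt), an elastic protein that links thick filaments to the Z disc, had 2229 in the control and 2219 in PKA-DN but 2771 in PKA-CA. Its signal was thus level in PKA-DN (log2 ratio -0.01, or 0.002 under cyclic loess scaling) and higher in PKA-CA (0.31), and its 0.32 between the PKA arrays was the highest of this subgroup. Obscurin (Unc-89, listed as Obsc in RefSeq), a protein of the M line in the middle of the sarcomere, had 599, 667 and 701, with ratios of 0.15 and 0.23. Stretchin-Mlck (Strn-Mlck), of the titin and myosin light chain kinase family, had 1234, 1330 and 1385, with ratios of 0.11 and 0.17. A dimmer Strn-Mlck probe set fell instead, at 112, 84.9 and 44.2, with -0.40 in PKA-DN. Its PKA-CA signal was under background.

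**Figure D2:**
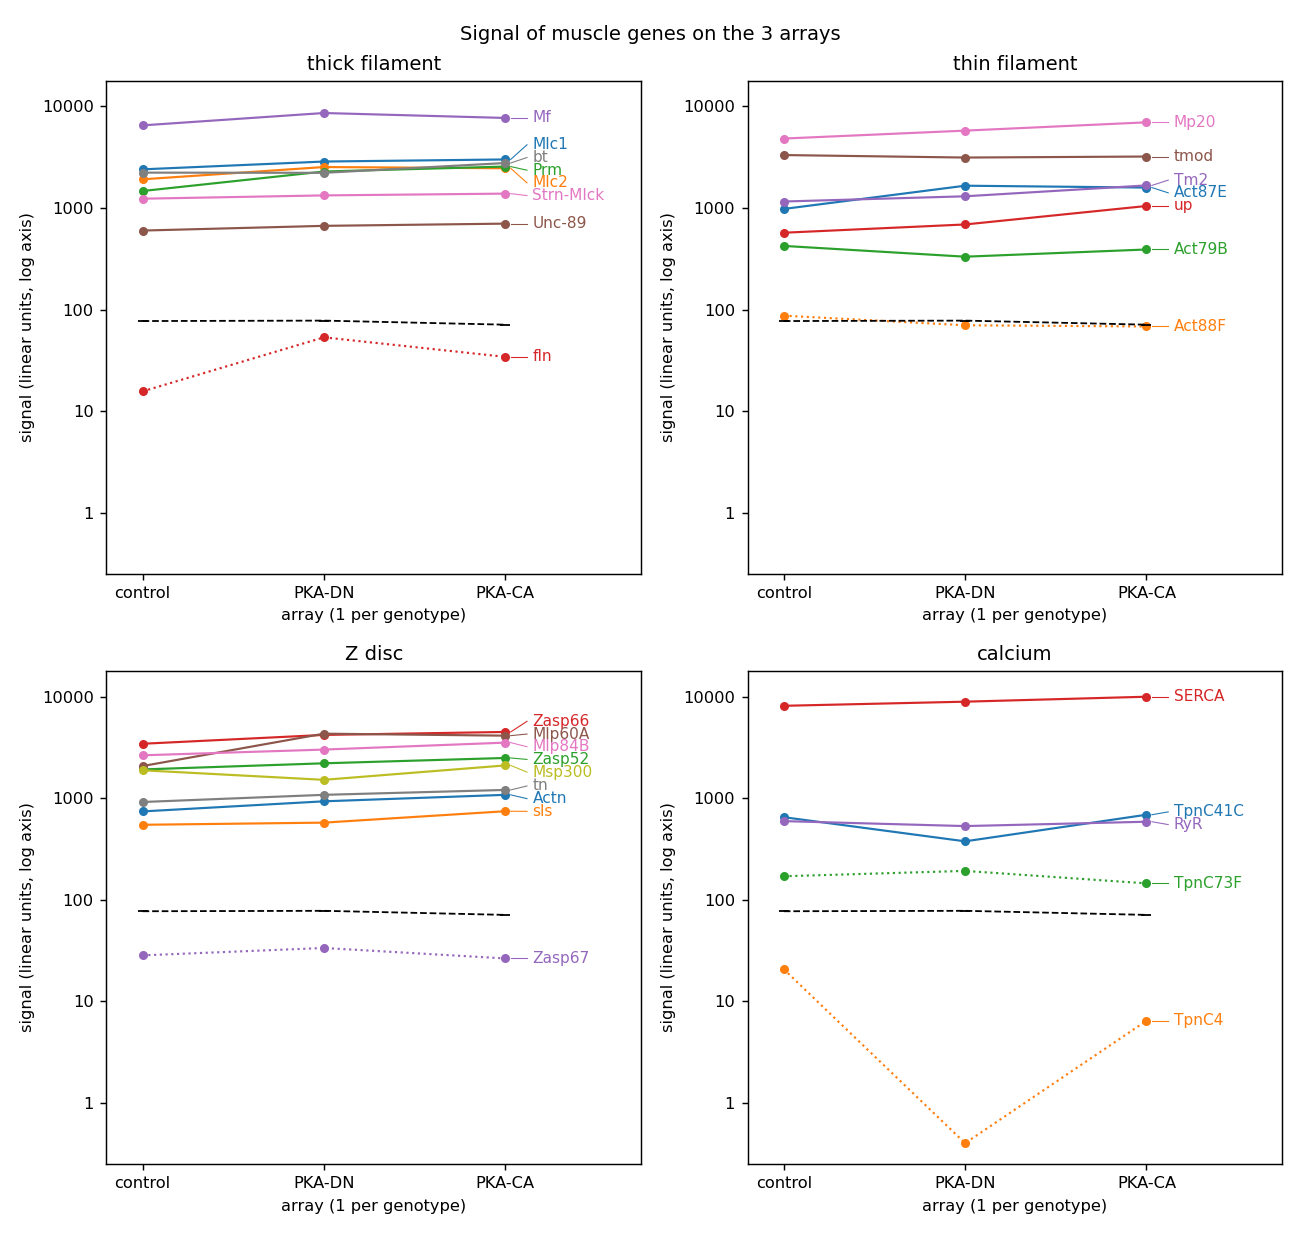
Signal on each array (1 per genotype, log axis) for the 29 muscle genes with a probe set, in 4 subgroups. Solid lines are genes bright enough to compare, dotted lines are dim ones and the dashed black line is the highest control probe set (70.9 to 77.8); signals of different genes come from different probes and are not comparable in height. Prm, Act87E and Mlp60A step up from the control to both PKA arrays, up steps up mainly in PKA-CA, and TpnC41C dips in PKA-DN.

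Thin filament genes were split. Of 6 compared members 4 were above the control on both PKA arrays, with subgroup medians of 0.21 and 0.53. Act87E, an actin gene expressed in muscle, had 978 in the control, 1657 in PKA-DN and 1589 in PKA-CA. Both PKA arrays lay far above the control and close to each other, with log2 ratios of 0.76 and 0.70 (1.69-fold and 1.62-fold) over control; PKA-CA was at -0.06 relative to PKA-DN. Its probe set ID ends in s_at, which marks probes shared between transcripts. The IDs used for Tm2, tmod, Mlp84B, tn and SERCA end in s_at as well. Actin genes are very alike, so the share of other actin transcripts in the Act87E signal is not known. Act79B, an actin of tubular muscle such as the jump muscle, went the other way, with 423, 331 and 390 and ratios of -0.35 and -0.12.

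Troponin T, encoded by upheld (up), ties the troponin complex to tropomyosin. Its gene had 571 in the control, 688 in PKA-DN and, in PKA-CA, 1046. This last array stood apart from the others, at 1.83-fold the control (0.87, rank 26 of 5991) and 1.52-fold PKA-DN (0.60), while PKA-DN had 0.27 over control. The value between the PKA arrays fell to between 0.56 and 0.58, just under 1.5-fold, when arrays were centred or normalized or when 64 was added to each signal. Tropomyosin 2 (Tm2), which blocks myosin sites on actin at rest, had 1158, 1303 and 1668, with ratios of 0.17 and 0.53. Mp20, a calponin-related muscle protein gene, had 4826, 5776 and 6973, with 0.26 and 0.53. Like up, Tm2 and Mp20 had their highest signal in PKA-CA, by 0.36 and 0.27 over PKA-DN. Tropomodulin (tmod), which caps the pointed ends of actin filaments, had 3320, 3138 and 3211 on its brightest probe set, with ratios of -0.08 and -0.05. Its other probe set was dimmer but above background and dipped in PKA-DN, at 260, 184 and 284, with -0.50 and 0.13 over control and 0.62 between the PKA arrays. Averaged over both, PKA-CA over control was 0.04.

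**Figure D3:**
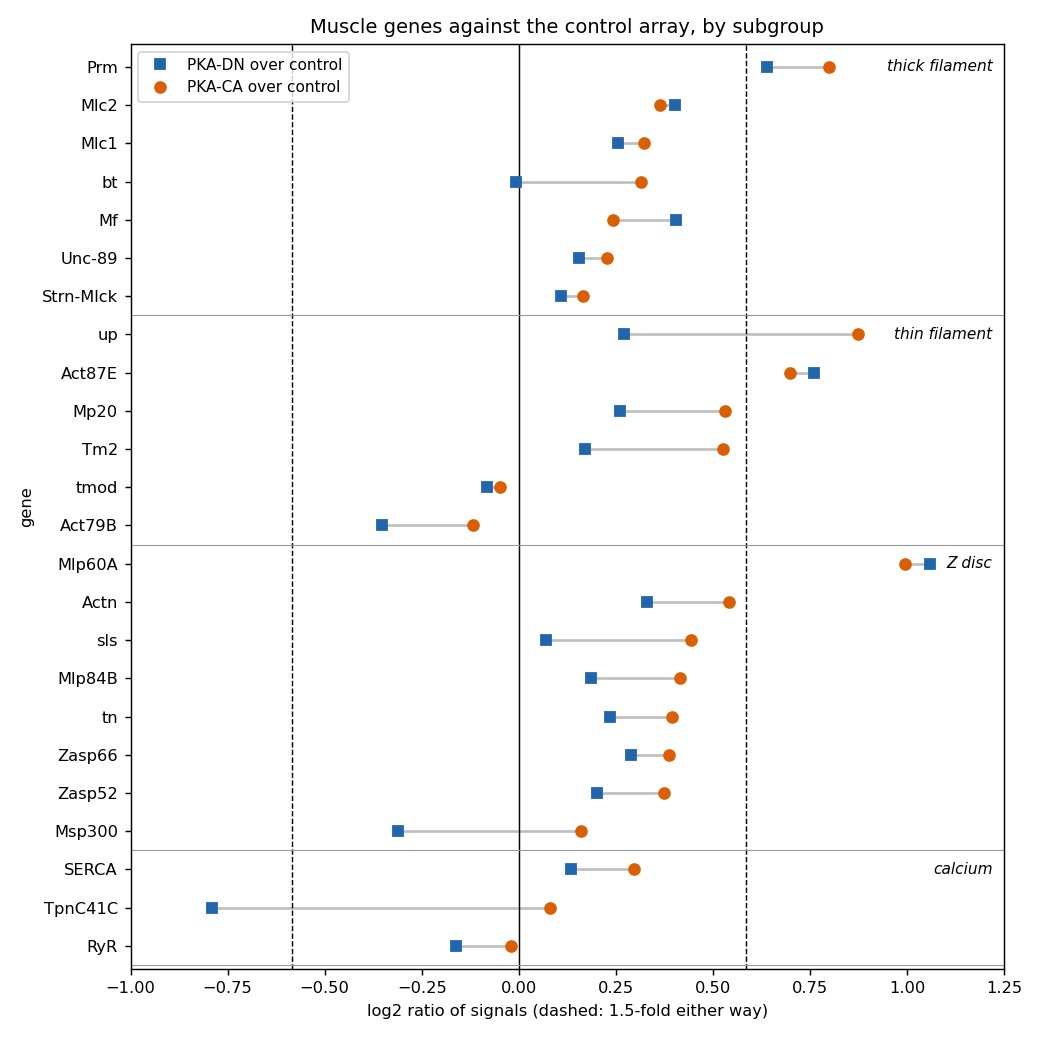
Log2 ratio of signals over the control array for the 24 compared muscle genes, grouped by place in the sarcomere, with PKA-DN as squares and PKA-CA as circles; dashed lines mark 1.5-fold either way. Most points lie right of 0, the circle lies right of the square for 20 genes, and TpnC41C in PKA-DN (-0.79) is the one value beyond 1.5-fold on the left.

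Z disc genes were mostly above the control. All 8 compared members were above the control in PKA-CA and 7 of 8 in PKA-DN, with medians of 0.40 and 0.22. The actin cross-linker gene alpha-actinin (Actn) had 741 in the control, 931 in PKA-DN and 1079 in PKA-CA, with log2 ratios of 0.33 and 0.54. Zasp52 and Zasp66 encode PDZ-domain proteins that bind alpha-actinin and assemble the Z disc. Zasp52 had 1919, 2205 and 2488, with ratios of 0.20 and 0.38. Zasp66 had 3434, 4196 and 4489, with ratios of 0.29 and 0.39. Its second probe set above background gave 0.09 and 0.38, and averaging all of its probe sets, 1 of them dim, turned the PKA-DN ratio to -0.07. In each of these genes the control was lowest and PKA-CA highest, as it was for Mlp84B and thin (tn).

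Mlp60A and Mlp84B encode muscle LIM proteins of the Z disc region. Mlp60A had 2072 in the control, 4317 in PKA-DN and 4127 in PKA-CA. Both PKA arrays were about 2 times the control (2.08-fold and 1.99-fold, log2 ratios 1.06 and 0.99), which gave it the highest ratio of all muscle genes on each, at rank 18 and rank 14 of 5991. This rests on its brightest probe set. The other Mlp60A probe sets, both above background on every array, gave 206, 116 and 160 with ratios of -0.82 and -0.36, and 136, 115 and 148 with -0.24 and 0.11. Averaged over its 3 probe sets, Mlp60A had ratios over control of -0.0024 and 0.25. Mlp84B, with 1 probe set, had 2644, 3010 and 3524, with ratios of 0.19 and 0.41.

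Sallimus (sls) is the fly's titin-like spring between the Z disc and the thick filament. Its brightest probe set had 547 in the control, 574 in PKA-DN and 744 in PKA-CA, so that PKA-CA alone stood out, with ratios of 0.07 and 0.44. The other sls probe sets pointed the same way with wider steps. One had 215, 217 and 414, with ratios of 0.01 and 0.94, and the other 115, 161 and 321, with 0.49 and 1.48. All 3 sls probe sets were thus highest in PKA-CA, with the brightest one giving the smallest ratio. The gene tn, which encodes the TRIM-family protein thin that keeps costameres and myofibrils intact, had 917, 1079 and 1206, with ratios of 0.23 and 0.39.

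Msp300, a nesprin that links nuclei and Z discs to the cytoskeleton, had 1883 in the control, 1516 in PKA-DN and 2102 in PKA-CA, with PKA-DN lowest at -0.31 and PKA-CA at 0.16. Its probe sets disagreed: averaged over those above background, PKA-DN over control was 0.04, and single ones lay between -0.31 and 0.60.

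Only 3 calcium genes could be compared. Of these, PKA-DN had 1 above the control and PKA-CA had 2. All 3 were higher in PKA-CA than in PKA-DN, by 0.14 to 0.87 with a median of 0.16. TpnC41C, a troponin C isoform known from adult flight and jump muscle, had 650 in the control, 376 in PKA-DN and 687 in PKA-CA. Its PKA-DN value was low while the other arrays were alike, with log2 ratios of -0.79 (PKA-DN) and 0.08 (PKA-CA) over control, and of 0.87 between the PKA arrays. It was the muscle gene furthest below the control in PKA-DN, at rank 30 from the bottom of 5991 genes, and the one furthest up between the PKA arrays, at rank 31 from the top. TpnC41C was measured by 1 probe set.

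SERCA, the calcium pump that refills the sarcoplasmic reticulum and also acts in other cell types, had 8121 in the control, 8917 in PKA-DN and 9976 in PKA-CA, with ratios of 0.13 and 0.30. Its other probe sets gave 0.05 and 0.50, and 0.18 and 0.31, so all 3 had the control lowest and PKA-CA highest. RyR, the calcium release channel, had 594, 531 and 586, with ratios of -0.16 and -0.02.

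Across the members with several probe sets, 14 further probe sets were above background on every array. Their ratio had the same sign as that of the brightest one in 10 of 14 cases against the control on each PKA array and in 8 of 14 between the PKA arrays. The disagreements against the control came from Mlp60A, Msp300 and, for PKA-CA, tmod. RefSeq lists earlier gene models merged into both Mlp60A and Msp300, and which model each probe set was made for is not known here.

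**Figure D4:**
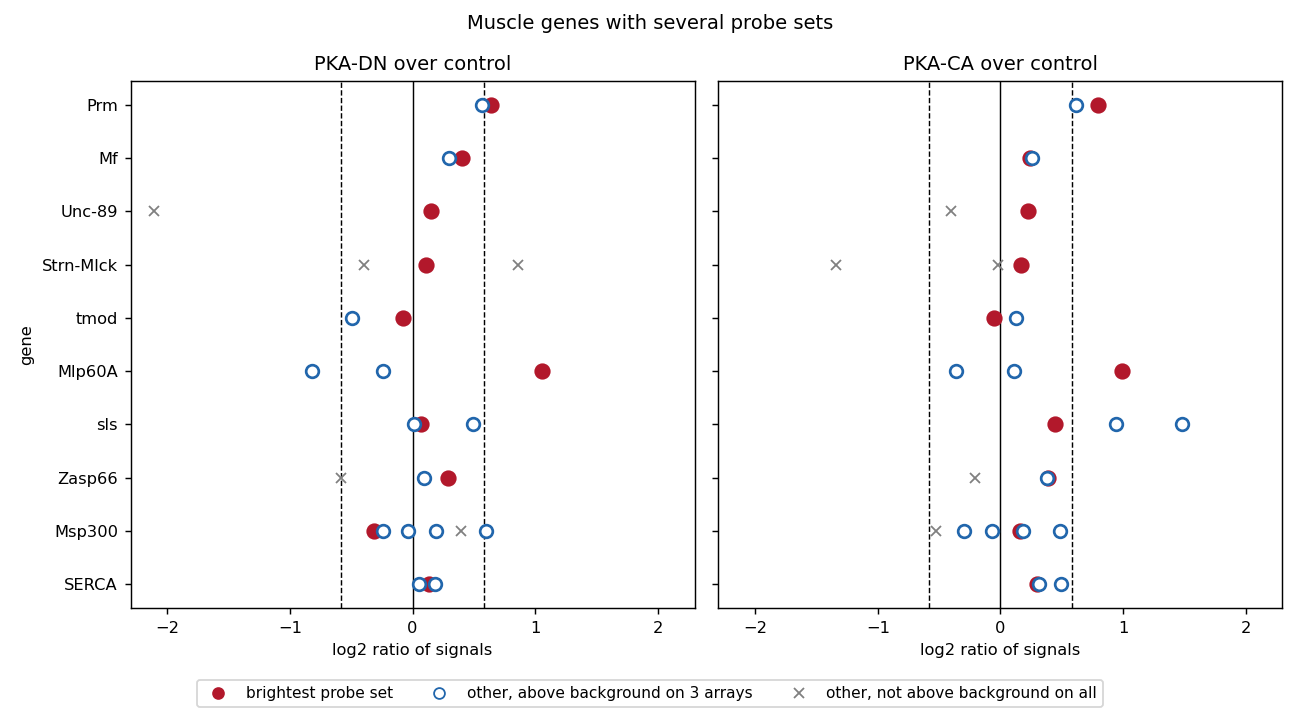
Log2 ratio over control for each probe set of the 10 compared muscle genes with several, in PKA-DN (left) and PKA-CA (right). Filled red circles are the brightest probe sets, open blue circles other ones above background on all 3 arrays and grey crosses those that were not; Prm, Mf and SERCA probe sets lie close together, those of sls spread to the right in PKA-CA, and those of Mlp60A fall on both sides of 0.

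Of the 5 dim members, 3 are known mainly from flight muscle in the thorax. Act88F, the actin of the indirect flight muscles, had 87.0 in the control, 70.0 in PKA-DN and 68.1 in PKA-CA, against highest control probe sets of 77.0, 77.8 and 70.9. Only the control was above its limit, so the control was at least 1.12-fold higher than PKA-DN and at least 1.23-fold higher than PKA-CA. Flightin (fln), a thick filament protein of flight muscle, had 15.6, 53.3 and 34.2, and TpnC4, the flight muscle troponin C, had 20.7, 0.40 and 6.4. Neither was above background on any array, nor was Zasp67 at 28.3, 33.5 and 26.4. TpnC73F was above background at 170, 192 and 145, with ratios of 0.17 and -0.23, but below the mean signal of 254 that a gene needed to be compared. The member just inside that limit was Act79B. The trunk Hox gene Antp, which patterns the thorax, had 40.8, 27.4 and 32.5, also under the limit. Scr, the only other Hox gene looked up here that had a single-name probe set, was above it at 165, 177 and 178 (log2 ratios over control 0.10 and 0.11).

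Neither gene length nor signal sorted the members cleanly. Over the 24 compared members, which all share the same arrays, Spearman's rho between gene length in RefSeq and log2 ratio was -0.38 for PKA-DN over control and -0.27 for PKA-CA over control. Between mean signal and ratio it was 0.44 and 0.18. For PKA-CA relative to PKA-DN it was 0.15 with length and -0.41 with signal. The 4 longest genes, Msp300, sls, Zasp52 and bt, had ratios of -0.31, 0.07, 0.20 and -0.01 in PKA-DN and of 0.16, 0.44, 0.38 and 0.31 in PKA-CA.

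Other genes of muscle, outside the sarcomere list, had medians closer to the control. The counts below stand beside 48.3% of all genes above the control in PKA-DN and 49.5% in PKA-CA. Of 16 genes for myofibril assembly and attachment, such as integrins, talin and chaperones, 10 were above the control in PKA-DN and 14 in PKA-CA, but medians were 0.03 and 0.09 and none passed 1.5-fold. Of 14 genes of glycolysis and energy supply, 6 were above the control in PKA-DN and 5 in PKA-CA, with medians of -0.04 and -0.02. Of 8 genes of excitation and calcium entry, 1 and 5 were above it, with medians of -0.09 and 0.10. Many of these genes are also used by neurons and other head cells. No compared gene of these lists passed 1.5-fold against the control. Among their genes too dim to compare but above background on every array, sals and GluRIIA did, in opposite directions. The assembly gene sals had 281, 158 and 306, with ratios of -0.83 and 0.12. GluRIIA had 91.9, 140 and 147, with 0.61 and 0.68. Only 3 genes of the cytoplasmic actin and myosin list could be compared, with medians of 0.01 and 0.06. Of 12 genes listed for muscle transcription and identity, 8 had a single-name probe set and 5 of those were not above background on any array. Just 2 could be compared, ap at 0.08 and 0.06 and mbl at 0.43 and 0.22, and are named for that reason.

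Markers of other head tissues differed between the arrays as well. Summed fat body signal was 170517 in the control, 161409 in PKA-DN and 134631 in PKA-CA, over 8 genes of which 1, Fbp1, was at or under background, and the median ratio of the 7 compared was -0.21 and -0.43. The larval serum protein gene Lsp2 ran against that median at 0.68 and 0.26, and the yolk protein gene Yp3 had -0.33 and -0.72. Glial genes had medians of -0.14 and -0.39 over 8 genes, led by ebony (e) at -1.15 and -1.46 and alrm at -0.69 and -0.74. Of the 8 genes 1 was above the control in PKA-DN and 2 in PKA-CA, with moody above it on both at 0.08 and 0.20. The glial gene repo had -0.11 and 0.05. Summed glial signals were 22013, 19544 and 17661, and the largest part of each came from Gs2, at 11653, 10795 and 9336. Blood cell genes had medians of -0.39 and -0.10 over 7 genes, led by PPO2 at -1.53 and -1.46 and PPO1 at -1.35 and -1.36. NimC1 had -0.77 and -0.22. Of the 7 genes 2 were above the control in PKA-DN and 1 in PKA-CA, with lz above it on both at 0.10 and 0.26. Summed blood cell signals were 20016, 17869 and 17230. Most of each sum came from Fer1HCH alone, at 14360.5, 14744.1 and 13547.2. Neuronal genes had -0.14 and 0.03 over 7 genes, of which 0 were above the control in PKA-DN and 6 in PKA-CA; para, at -0.70 and -0.65, was the one below it on both. Their summed signals were 21576, 20049 and 22491. Of 6 oenocyte and cuticle genes 4 were above background on all arrays, with medians of -0.04 and -0.01. Of these 4 genes 1 was above the control in PKA-DN and 2 in PKA-CA, with Cpr47Ee above it on both at 0.44 and 0.57. Cyp4g1 had 766, 541 and 76.0, with -3.33 in PKA-CA. That last signal lay close to the background limit of 70.9 on the PKA-CA array. The part of these other tissues in the muscle gene ratios was not tested. With the arrays quantile-normalized, the muscle medians were 0.19 and 0.36.

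**Figure D5:**
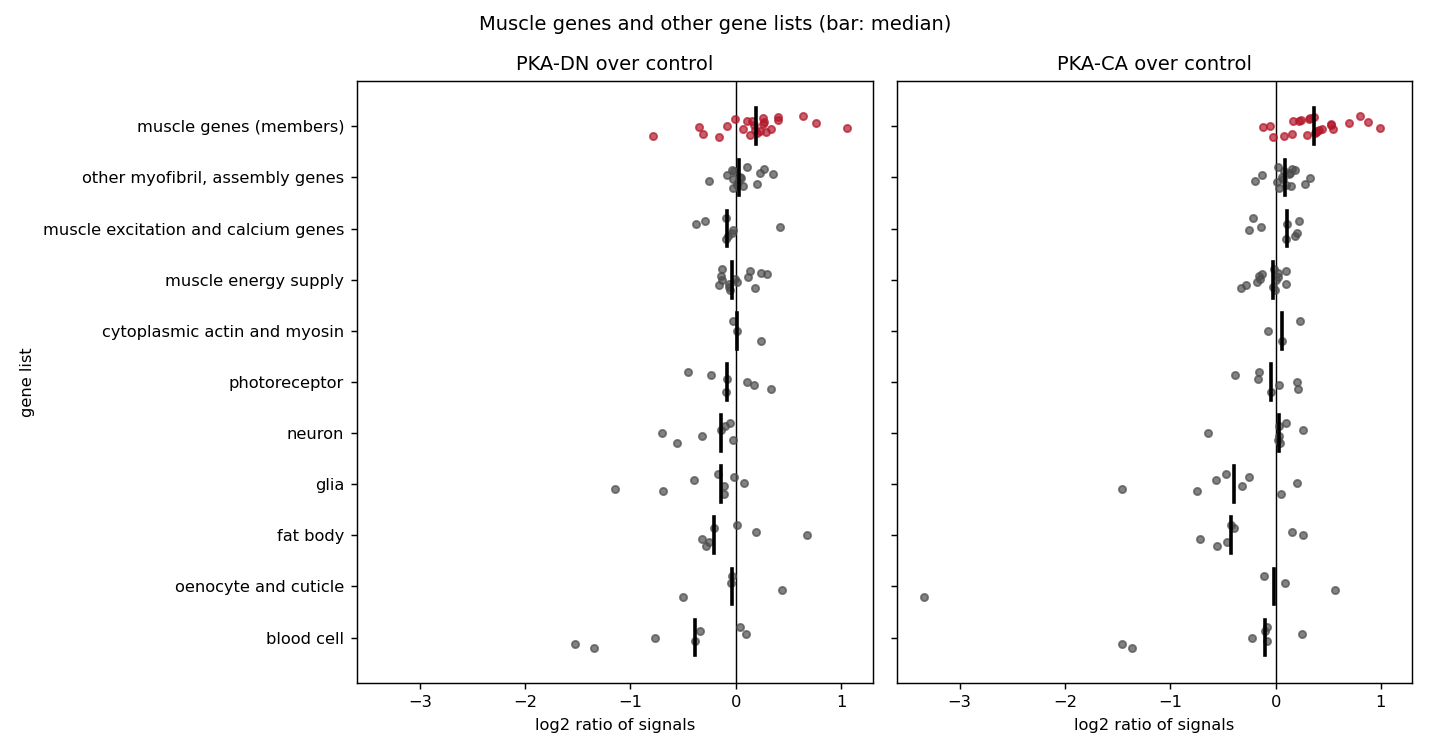
Log2 ratio over control of each gene (points) in the muscle list and in 10 other lists with at least 3 compared genes, for PKA-DN (left) and PKA-CA (right), with list medians as black bars. The muscle medians (0.19 and 0.37) lie to the right of 0 on both sides, those of the energy supply genes (-0.04 and -0.02) lie near 0, and fat body, glia and blood cell medians lie to the left.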

How the data were processed

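RNA from adult heads was measured on 3 single-colour Affymetrix arrays, 1 per genotype. The authors deposited a linear array intensity for each probe set. The submitters' processing notes name MAS5 without version or settings. Trimmed by 2% at each end, the mean over 18952 probe sets was 500 on each array, so the arrays share a scale. Values were placed on the log2 scale as deposited, with no added constant. Probe sets with 1 gene symbol in the platform table (13647) were named through RefSeq identifiers of Release 6 plus ISO1 MT, which updated 13544 of them. Of 11982 genes, the brighter 50% (by log2 signal averaged over arrays) were compared, each through its brightest probe set. Background was the highest signal of 99 of the 100 control probe sets with IDs beginning AFFX-Dm; 1 above 1000 was left out.

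Log2 ratios were read against 1.5-fold and against all genes compared. No test could be made and no replicate error given with 1 array per group; precision is limited by the number of arrays. Members given in full were those past 1.5-fold in any comparison and the 2 brightest of each subgroup; other members are given as space allowed. The members and lists were chosen with earlier results of these data known. From the other lists, genes past 1.5-fold against the control are named, at most 4 a list. Outside this rule, ap, mbl, Antp, Scr, Fbp1, fit, lz, Fer1HCH, moody, repo, Gs2 and Cpr47Ee were named after their values were seen. Alternatives were array centring, quantile normalization and cyclic loess (limma 3.58.1 in R 4.3.3), 64 added to each signal, other signal filters and averaged probe sets. Python 3.11.15 with pandas 2.3.3 computed the ratios, which were checked on simulated data. Promoter sequences were not used here.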

Additional observations from a re-analysis of the deposited data

How the results depend on the processing

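The counts and medians were recomputed under 8 alternatives; 1 of these, averaging only probe sets above background, was chosen after seeing the data. In 87 cases a count or median stayed within 1.5 times its value, and in 9 cases a count did not. No median changed sign. Counts were set side by side as they stood, although the number of members compared changed with the signal filter and with averaging. With all probe sets averaged, 14 of 21 members were above the control in PKA-DN (66.7%), beside 18 of 24 (75%) as deposited. The median of all genes moved by less than 0.1 under every scaling. The number of muscle genes 1.5-fold or more higher in PKA-CA than in PKA-DN was 1 in place of 2 with arrays centred, under quantile normalization, under cyclic loess and with 64 added, as up fell just below the line, and 0 among the 18 members in the upper 25% by signal, where up and TpnC41C were not compared. Also without TpnC41C, no member was 1.5-fold lower in PKA-DN in that upper 25%. With no signal filter 29 members entered, and the count of 1.5-fold lower members became 2 in PKA-DN over control, 1 in PKA-CA over control and 1 in PKA-CA over PKA-DN, through genes not above background. Averaging all probe sets, or those above background, turned Mlp60A in PKA-DN over control to -0.0024 and left it at 0.25 in PKA-CA over control. No paired analysis was possible because each group has 1 array. Leaving out an array was not possible for the same reason.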
